A study of Arabidopsis thaliana with 12 samples.

Results

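AT2G04050 and AT2G04070 are Arabidopsis thaliana genes of the multidrug and toxic compound extrusion (MATE) family. They were chosen by their measured levels on these arrays, which earlier results showed to be much higher after exposure to a high concentration of formaldehyde gas. They are 2 of 38 MATE genes that had a probe set of their own on the array, out of 57 loci on the family list and out of 13286 genes named by such a probe set. Both belong to a run of MATE genes on chromosome 2, but they are not direct neighbours, because 4 annotated protein-coding genes lie between them.

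MATE proteins are membrane carriers that move small organic molecules out of the cytosol, to the outside of the cell or into the vacuole, in exchange for protons or sodium ions. Plant members are known to carry flavonoids, alkaloids, citrate, hormones and foreign compounds. DTX1 (AT2G04040), which lies directly beside AT2G04050, exported toxic compounds when it was made in Escherichia coli.

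The study measured transcripts in rosette leaves of wild-type plants that were 7 weeks old, with 1 Affymetrix ATH1 array per plant and 12 arrays in all. All plants were acclimated for 72 h under constant light at 24 °C. Of the 4 groups of 3 plants, the first stayed outside the exposure chamber at less than 0.08 ppm formaldehyde. The second stood in the chamber in clean air at less than 0.04 ppm, the next in 1 to 2 ppm (low exposure) and the last in 14 to 16 ppm (high exposure), each for 150 min. The 3 plants of a chamber condition shared the chamber, so the chamber run and the dose cannot be told apart. The p-values below rest on the spread between plants within a group, pooled over all 4 groups, and not on a spread between runs.

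Values are log2 expression levels normalized with GCRMA, and the lowest value on the arrays was 2.11. A level of 4 was used as the limit above which a probe set was counted as measured, and a probe set was tested if it passed that level on at least 3 of 12 arrays. This left 13874 probe sets, which were tested together with limma, with Benjamini-Hochberg adjusted p under 0.05 as the threshold. A level in leaf tissue can differ because fewer cells hold the transcript or because each cell holds less of it, and these cannot be told apart here. The arrays' medians lay between 5.71 and 5.90. The leaf genes RCA, SBPASE and PRK lay between 12.01 and 15.14 on all arrays, and the 3 root markers at 2.11. At high exposure against clean air these leaf genes fell by 0.26, 1.35 and 1.14 (limma adjusted p = 0.0221, 0.000461 and 0.000371), and the phloem gene SWEET11 fell by 0.78 (limma adjusted p = 0.0128). The trichome gene TRY averaged 3.03 at high exposure, against 5.33 in clean air. The guard cell gene FMA did not pass in that contrast (-0.42; limma adjusted p = 0.170). AUR1, a gene of dividing cells, averaged 4.66 at low exposure and lay below 4 on all arrays of the other groups. The gap between 3′ and 5′ control probe sets, which widens as RNA breaks down, was 1.12 ± 0.04 outside, 1.21 ± 0.05 in clean air, 1.47 ± 0.05 in the low group and 1.60 ± 0.21 in the high group (SD, n = 3 each). The bioC spike-in signal was 6.99 ± 0.21 outside, 6.53 ± 0.26 in clean air, 8.78 ± 0.13 in the low group and 7.23 ± 0.23 in the high group. The part of these differences in the results below was not tested.

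AT2G04050 was measured at high exposure and in no other group. Its log2 levels were 2.13, 2.13 and 2.19 outside the chamber, 2.13, 2.12 and 2.11 in clean air, 2.11, 2.13 and 2.13 at low exposure, and 9.75, 10.07 and 9.98 at high exposure. The 9 arrays of the other groups all lay at the lower end of the scale, and the lowest high-exposure array stood 7.56 log2 units above the highest of them. The mean was 9.93 ± 0.17 at high exposure, against 2.12 ± 0.01 in clean air (SD, n = 3 each). Counted from the level of 4, the gene was at least 61.1-fold higher at high exposure than in each other group. The 3 other groups have no order for this gene, since all their values lie below 4. The gene entered the tested probe sets through its high-exposure arrays alone.

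AT2G04070 was also higher at high exposure than in each other group, and it lay near the level of 4 elsewhere. Its log2 levels were 4.25, 4.83 and 4.64 outside the chamber, 4.49, 4.17 and 4.10 in clean air, 3.95, 4.06 and 4.07 at low exposure, and 9.74, 11.17 and 10.79 at high exposure. Again the groups did not overlap, and the lowest high-exposure array stood 4.91 above the highest other array. The mean was 10.57 ± 0.74 at high exposure, against 4.25 ± 0.21 in clean air (SD, n = 3 each), a log2 difference of 6.31 and a fold of 79.6. Against low exposure, whose mean was 4.03 ± 0.07, the fold was 93.2. Of the 9 arrays without high exposure, 8 lay above 4, the highest at 4.83. Both genes were chosen for this rise, so these differences are a description and carry no test.

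**Figure D1:**
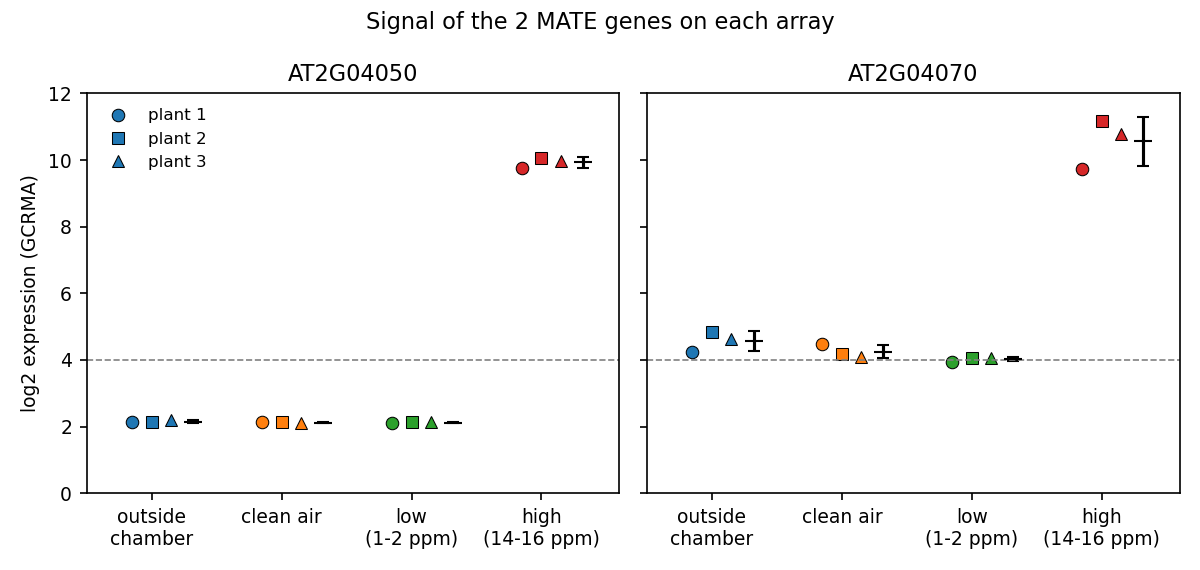
Log2 expression of AT2G04050 and AT2G04070 on each of the 12 arrays (1 symbol per plant), by group, with the group mean ± SD (bars) and the level of 4 (dashed). All 3 high-exposure arrays of both genes lie at 9.74 or above, and every other array at 4.83 or below.

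The smaller differences of AT2G04070 between the other 3 groups did not pass the test. All 3 low-exposure arrays lay below all 3 clean air arrays, with a log2 difference of -0.23 (SE 0.31; 95% interval -0.91 to 0.46; limma adjusted p = 0.634). This interval spans 0.532-fold to 1.37-fold. Its SE comes from a spread pooled over all 4 groups. The SD of the gene was largest at high exposure (0.74), against 0.07 at low exposure and 0.21 in clean air. In the same contrast 23.2% of all tested probe sets were called. Clean air and outside plants overlapped, with a difference of -0.32 (95% interval -1.01 to 0.36; limma adjusted p = 0.617), in a contrast where 3.04% of probe sets were called. Low exposure against outside plants gave -0.55 (95% interval -1.23 to 0.14; limma adjusted p = 0.192), with the groups apart and 35.5% of probe sets called.

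Among 13874 tested probe sets ranked by their difference between high exposure and clean air, AT2G04050 stood 24th and AT2G04070 52nd. With values below 4 raised to 4, they stood 41st and 35th. The order of the 2 genes therefore depends on how levels below 4 are treated. In both genes replicate 1 was the lowest of the high-exposure arrays, replicate 3 the middle one and replicate 2 the highest. Replicate 1 was the lowest in 135 of 189 probe sets that rose by log2 4 or more (71.4%), against 34.7% of all tested probe sets. Its 3′ to 5′ control gap was 1.83, against 1.55 and 1.41 on replicates 2 and 3, and the part of that gap in the order was not tested.

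AT2G04050 belonged to 132 of 22746 probe sets (0.580%) that lay above 4 on all 3 high-exposure arrays and on none of the other 9. None of the other 36 MATE genes with a probe set of their own did so, which is near that share. Since AT2G04050 was chosen for its rise, this count does not set it apart from the family. Of those 36 genes, 15 never passed 4 on any array and 21 were tested.

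The chromosome around the 2 genes was compared at the same time. Of the 4 protein-coding genes between them, AT2G04060 lay at 2.11 on all 12 arrays and AT2G04063 between 2.30 and 2.37, and the remaining 2 had no probe set of their own. DTX1 had no named probe set and was not analysed here. Among the 10 protein-coding genes before AT2G04050, bZIP48 (AT2G04038), a basic leucine zipper transcription factor, lay at 2.11 throughout. AT2G04039, which encodes a subunit of the chloroplast NADH dehydrogenase-like complex, had levels of 8.84, 9.30 and 9.44 at high exposure, against 11.44, 10.79 and 11.07 in clean air. Its groups did not overlap, and it fell by 1.91 on the log2 scale (SE 0.31; limma adjusted p = 0.000411), in a contrast where 30.1% of probe sets fell. Its difference at low exposure was -0.08 (limma adjusted p = 0.877).

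Among the 10 genes after AT2G04070, AT2G04220 lay at 2.11 and AT2G04230 fell, with levels of 6.59, 5.49 and 5.80 at high exposure, against 6.59, 6.92 and 6.90 in clean air (-0.84 ± 0.25 SE; limma adjusted p = 0.0151). That call was lost in 3 of 12 leave-one-out fits and against outside plants, with adjusted p up to 0.0664. A probe set shared by AT2G04066 and AT2G04080, which names neither, had levels of 8.88, 8.92 and 9.35 in clean air, 7.79, 7.68 and 7.54 in the low group, and 7.87, 8.23 and 8.10 in the high group. It fell by 0.98 at high exposure (limma adjusted p = 0.00185) and fell by 1.38 at low exposure (limma adjusted p = 0.00202), opposite in sign to the 2 genes at high exposure. The probe set shared by AT2G04090 and AT2G04100 reached at most 2.76. Of the neighbours, only AT2G04039, AT2G04230 and the probe set shared by AT2G04066 and AT2G04080 lay above 4. None of these rose at high exposure against clean air. No gene between the 2 with a probe set of its own was measured. The rest of the cluster could be compared only through the probe set shared by AT2G04066 and AT2G04080, which cannot be assigned to either gene.

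**Figure D2:**
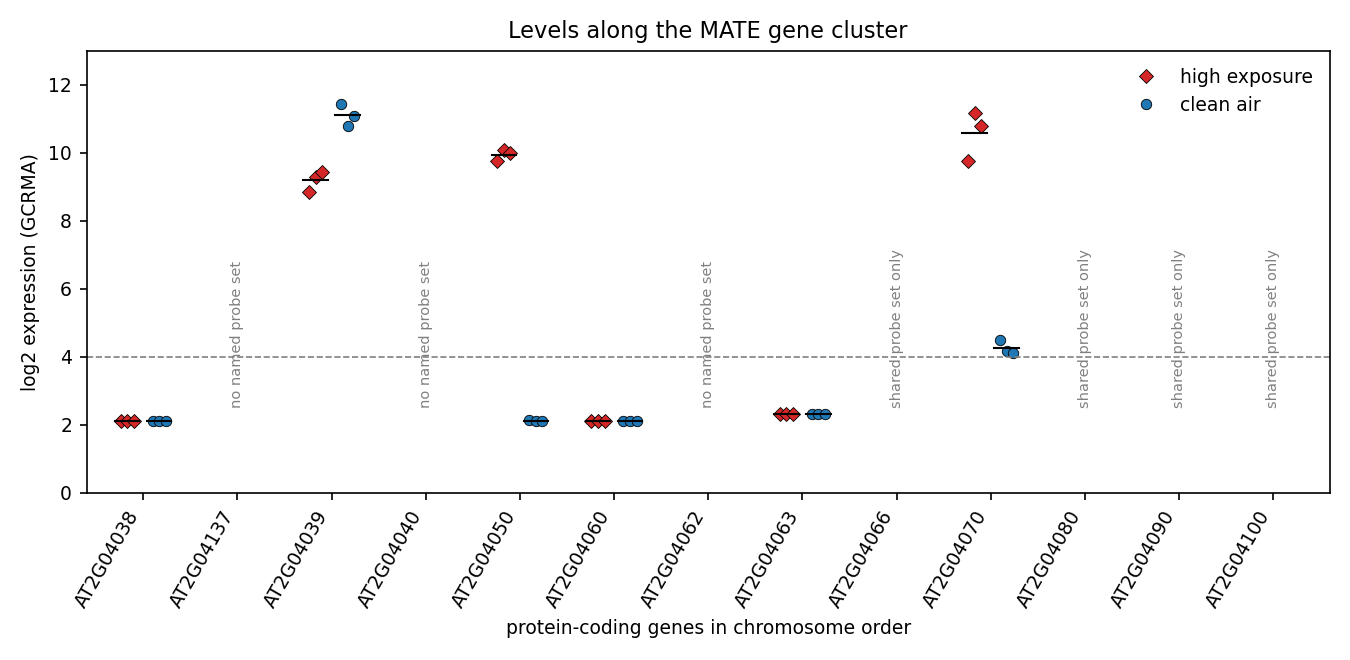
Log2 expression of protein-coding genes in chromosome order around the 2 genes, at high exposure and in clean air (points are arrays, lines are means of 3, dashed line is the level of 4). AT2G04050 and AT2G04070 stand above 9 at high exposure, while AT2G04060 and AT2G04063 between them stay below 2.5 in both groups.

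Among the 21 other tested MATE genes, 3 rose and 9 fell at high exposure against clean air, and 9 did not pass. The share called was 57.1%, against 52.9% of all tested probe sets, so it was near the background. By direction, 14.3% of the family rose against 22.8% of all probe sets, and 42.9% fell against 30.1%. The median difference was -0.58 in the family and -0.10 over all probe sets. The family list was taken from general knowledge of MATE loci, with earlier results known. When arrays were scaled to 14 spike-in control probe sets, the median of all probe sets moved by -0.17, and the split of the calls over all probe sets was 32.6% up, against 43.0% up as deposited. The family counts stayed at 3 up and 9 down with the 14 sets. With 7 of these sets the calls over all probe sets were 37.8% up, and the family counts were 3 up and 8 down.

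The 3 that rose did so by less than the 2 genes. AT3G23550 had levels of 11.15, 11.71 and 10.94 at high exposure, against 8.78, 8.10 and 6.32 in clean air, and rose by 3.53 ± 0.56 (SE; limma adjusted p = 0.000367). The groups did not overlap, although the clean air plants differed among themselves by more than 2 log2 units. Against outside plants, at 9.13, 8.99 and 9.62, the rise of AT3G23550 was smaller, at 2.02 (limma adjusted p = 0.0101). AT1G33110 averaged 9.12 ± 0.15 at high exposure, with 7.77, 7.58 and 8.08 in clean air, and rose by 1.31 ± 0.30 (limma adjusted p = 0.0034). AT5G65380 had 9.62, 9.81 and 10.01 against 8.89, 8.87 and 9.10 in clean air, and rose by 0.86 ± 0.17 (limma adjusted p = 0.00173).

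The largest fall was that of AT3G26590, with levels of 4.18, 4.50 and 4.57 at high exposure, against 8.31, 7.82 and 8.10 in clean air (-3.66 ± 0.53 SE; limma adjusted p = 0.000212). A second probe set of this gene stayed below 4 on all arrays and was not tested. AT5G17700 had 3.00, 3.46 and 2.69 at high exposure, against 5.75, 5.85 and 6.32 in clean air, and was at least 3.93-fold lower (limma adjusted p = 0.00163). In both genes the groups were apart. AT1G71140 had 5.15, 5.88 and 5.85 at high exposure, against 8.03, 7.56 and 8.07 in clean air, and fell by 2.26 ± 0.22 (limma adjusted p = 1.42e-05). AT4G22790 had 3.00, 2.73 and 2.68 at high exposure, against 5.32, 5.15 and 4.68 in clean air, and was at least 2.07-fold lower (limma adjusted p = 1.75e-05). None of these groups overlapped either. AT1G11670 fell by 1.42 ± 0.48 (limma adjusted p = 0.0285), a call lost in 3 leave-one-out fits, without the filter and with array weights (adjusted p up to 0.112). AT2G21340, a chloroplast relative of the salicylate exporter EDS5, had 8.73, 8.70 and 8.86 at high exposure, against 9.95, 9.55 and 9.88 in clean air, and fell by 1.03 ± 0.15 (limma adjusted p = 0.000264). The falls of AT1G47530, AT1G15180 and AT2G38330 were smaller than 1.1.

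**Figure D3:**
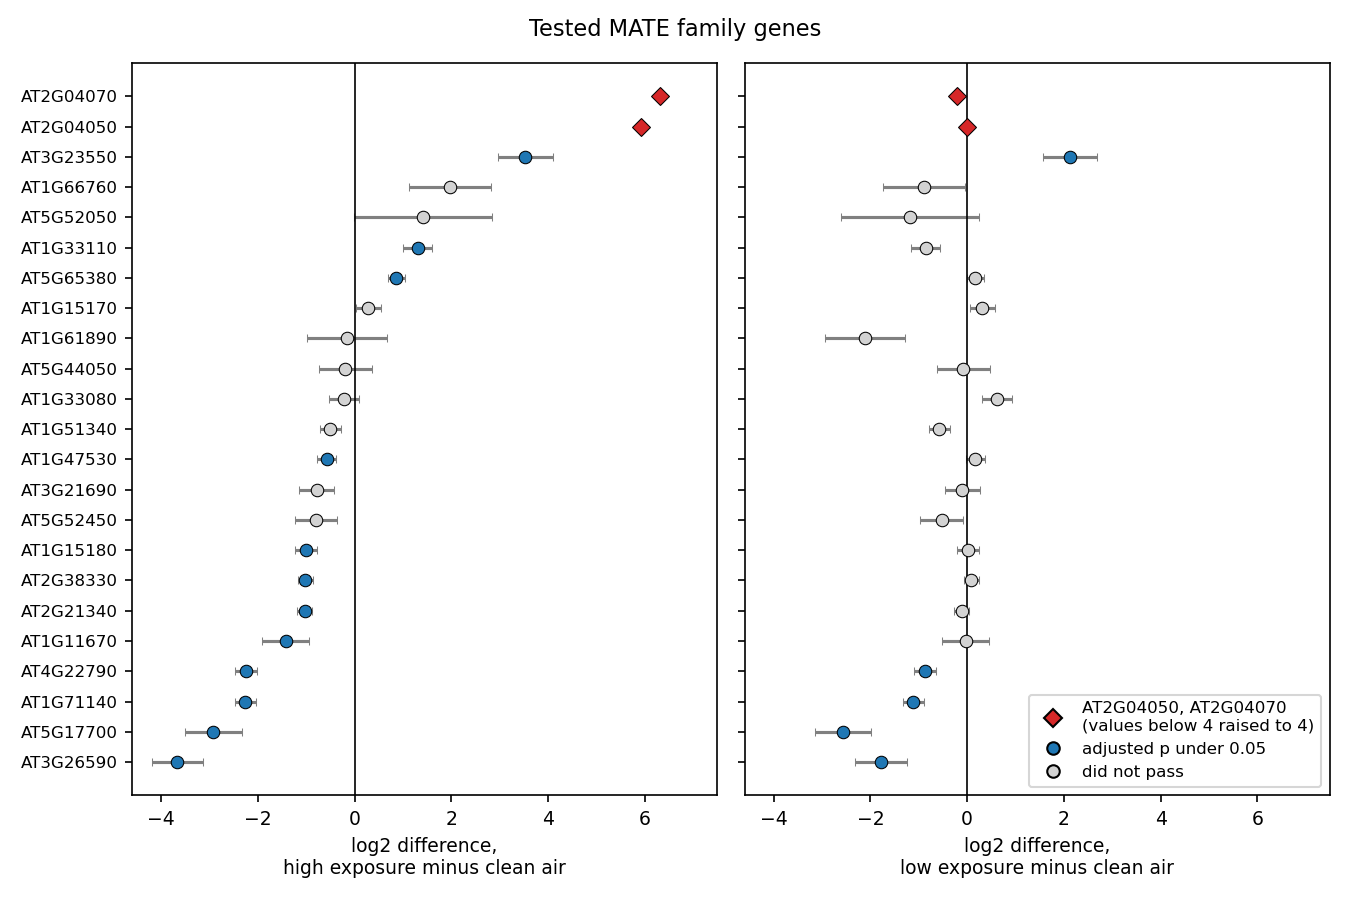
Log2 difference of each tested MATE gene at high exposure (left) and low exposure (right) against clean air, with bars of 1 standard error, for calls (blue) and genes that did not pass (grey); AT2G04050 and AT2G04070 (red) are drawn with values below 4 raised to 4. The 2 genes stand at 5.93 and 6.31 on the left, to the right of the other family genes, of which AT3G23550 is next at 3.53.

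At low exposure against clean air, 1 of the 21 other family genes rose and 4 fell, or 23.8%, against 23.2% of all probe sets (11.8% up and 11.4% down). The median was -0.11 in the family and -0.01 over all probe sets. Scaling to the 14 spike-in sets left the family count as it was but gave 24.8% of all calls up, against 50.8% as deposited. With 7 of these sets the share was 40.6%. AT3G23550 rose, with 10.75, 9.15 and 9.66 at low exposure and 8.78, 8.10 and 6.32 in clean air (2.12 ± 0.56 SE; limma adjusted p = 0.021). That call was lost without clean air replicate 3 or low replicate 1, without the filter, in the fit of 6 arrays and against outside plants (adjusted p up to 0.432).

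AT5G17700 fell, with 2.63, 3.41 and 4.17 at low exposure, against 5.75, 5.85 and 6.32 in clean air (limma adjusted p = 0.0114). With values below 4 raised to 4 its difference was -1.92 (limma adjusted p = 0.0184). AT3G26590 fell by 1.78 ± 0.53 (limma adjusted p = 0.0344), with 5.41, 5.61 and 7.87 at low exposure. Low replicate 3 lay between the clean air plants' lowest and highest values, and the call was lost in 5 of 12 leave-one-out fits, without the filter and in the fit of 6 arrays (adjusted p up to 0.117). AT1G71140 fell by 1.11 (limma adjusted p = 0.00654), a call lost against outside plants, where the difference was -0.10 (adjusted p = 0.763). AT4G22790 fell by 0.87 ± 0.23 (limma adjusted p = 0.0192), lost in 4 leave-one-out fits and against outside plants (adjusted p up to 0.0737).

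Between high and low exposure, 3 of the 21 rose and 9 fell, or 57.1%, against 49.8% of all probe sets (21.1% up and 28.7% down). The family median was -0.35, or -0.18 with values below 4 raised to 4, and that of all probe sets was -0.11. AT1G33110 rose by 2.16 ± 0.30 (limma adjusted p = 0.000169), with 6.52, 6.70 and 7.64 at low exposure. AT1G66760 had 5.54, 6.59 and 7.14 at high exposure, against 3.71, 3.97 and 2.96 at low exposure, and was at least 5.37-fold higher (limma adjusted p = 0.0156). That call was lost without low replicate 3 or high replicate 3 and without the filter (adjusted p up to 0.0602). AT1G66760 had 5.50, 8.52 and 5.75 outside the chamber, and its difference of -0.17 between high exposure and outside plants did not pass (limma adjusted p = 0.882). High exposure against clean air did not pass either (limma adjusted p = 0.0701), while low exposure lay below outside plants (limma adjusted p = 0.0178). AT3G26590 fell by 1.88 (limma adjusted p = 0.013) and AT1G71140 by 1.15 (limma adjusted p = 0.0014). AT1G11670 fell by 1.39 (limma adjusted p = 0.0334), a call lost in 5 leave-one-out fits and without the filter (adjusted p up to 0.103). AT4G22790 was at least 1.13-fold lower (limma adjusted p = 0.000533), and with values raised to 4 it did not pass (adjusted p = 0.465).

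In clean air against outside plants, 1 of the 21 rose and none fell, or 4.76%, against 3.04% of all probe sets (1.70% up and 1.34% down). The calls over all probe sets were 55.9% up, or 89.0% up with scaling to the 14 spike-in sets and 68.4% up with 7 of them. AT1G71140 had 8.03, 7.56 and 8.07 in clean air and 6.68, 7.00 and 6.95 outside (1.01; limma adjusted p = 0.0342). The groups did not overlap, but the call was lost in 8 of 12 leave-one-out fits and in 3 other fits (adjusted p up to 0.111).

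The genes whose profiles over the 12 arrays lay nearest to the 2 genes were sought among 7448 probe sets with 1 named gene, by the root mean square of the difference between profiles after each gene's own mean was subtracted. Nearest to AT2G04050 was UGT73C1, a UDP-glycosyltransferase, at 0.128 log2 units, followed by AT4G28460 at 0.173, AT2G32020 at 0.184, AT2G21640 at 0.310 and Hop3, a co-chaperone that joins Hsp70 and Hsp90, at 0.312. The glycosyltransferase UGT73B5, AT1G74870 and AT1G71000 followed, at 0.449, 0.497 and 0.551. The median distance over all tested probe sets was 3.44. Nearest to AT2G04070 were UGT73B4, also a glycosyltransferase, at 0.252 and GSTU25, a tau class glutathione transferase, at 0.377. AT2G31945, AT2G32190, AT1G74870, AT2G23270, AT2G20720 and AT1G71530 followed, between 0.415 and 0.524, and the median was 2.82. All the genes named here except AT2G21640 and UGT73B5 lay above 4 on high-exposure arrays only. They entered the tested probe sets through those arrays alone, and their values on the other arrays carry no order. Their nearness is therefore a description of the rise for which the 2 genes were chosen.

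**Figure D4:**
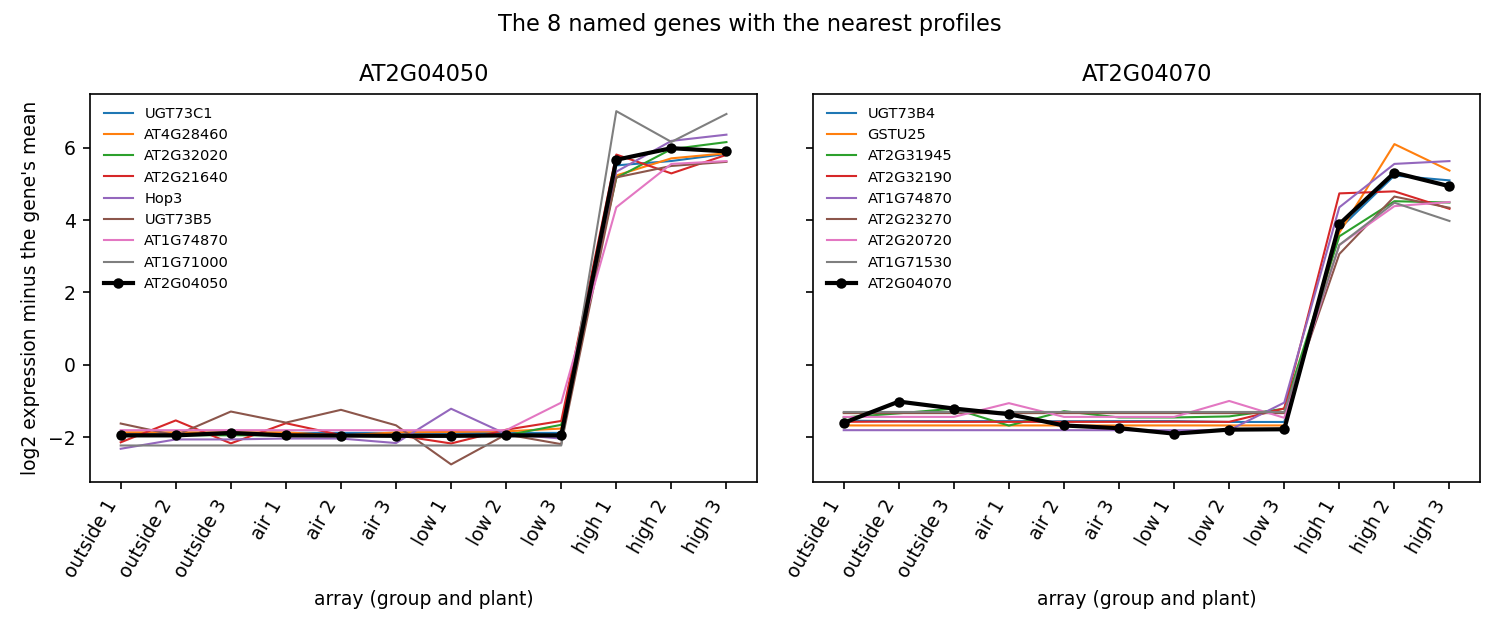
Log2 expression minus each gene's own mean on the 12 arrays (horizontal axis, by group and plant) for AT2G04050 and AT2G04070 (black) and the 8 named genes nearest to each (colours); lines join separate plants. All curves stand highest on the 3 high-exposure arrays, and replicate 1 of AT2G04070 lies below replicates 2 and 3.

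The distance between the 2 genes was 0.738. Among the 7448 probe sets with 1 named gene, this made AT2G04070 the 14th nearest to AT2G04050 and AT2G04050 the 24th nearest to AT2G04070. A further 11 tested probe sets without 1 named gene lay as near to AT2G04050 as its 8th gene, and 8 as near to AT2G04070 as its own. With values below 4 raised to 4, an alternative chosen after seeing the data, the distance was 0.367 and the ranks were 6th and 3rd. Of the 8 nearest genes, 5 were shared between both ways of measuring for AT2G04050 and 0 for AT2G04070. All 12 points of a profile share their arrays and the group means set most of the distance, so these distances are a description.

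Several of these neighbours in profile belong to lists of genes for foreign and electrophilic compounds and for mitochondrial stress, which were chosen with earlier results known and are no independent evidence. Of 10 tested genes on the first list, 3 lay above 4 on their high-exposure arrays alone. The direction of their difference was fixed by the filter and is given as a description. UGT73C1 was at least 50.4-fold higher at high exposure than in clean air, GSTU25 at least 28.5-fold and UGT73B4 at least 21.0-fold. Of the other 7, 6 rose and none fell, where 22.8% of all probe sets rose and 30.1% fell. The median difference of the 7 was 3.73, against -0.10 over all probe sets. Of these 7 genes, AT5G16980 and CCR2 lay above 4 on fewer than 3 arrays outside the high-exposure group. Without their high-exposure arrays they would not have been tested, so their differences are also a description. Both the count and the median include them, so the comparison of the 7 with all probe sets is a description too.

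AER, an alkenal reductase that acts on reactive carbonyls, averaged 12.56 ± 0.23 at high exposure and 8.07 ± 0.18 in clean air (SD, n = 3 each; difference 4.49; limma adjusted p = 2.48e-08). UGT73B5 rose by 6.94 (limma adjusted p = 6.26e-09). AT5G16980, given as a description, was higher by 6.59, or by 6.20 with values below 4 raised to 4, since clean air replicates 1 and 2 lay below 4. The call of AT1G33590 was lost in 3 of 12 leave-one-out fits and with spike-in scaling (adjusted p up to 0.171), and against outside plants its difference turned to -0.23. That of AT3G04000 was lost with spike-in scaling (adjusted p up to 0.0732). CCR2, below 4 on all 3 clean air arrays, did not pass with the deposited values (limma adjusted p = 0.0571). With values raised to 4 it was higher by 1.36, also given as a description. At low exposure against clean air none of these 7 rose and 1 fell, where 11.8% of all probe sets rose and 11.4% fell. The gene that fell was UGT73B5 (-0.79; limma adjusted p = 0.0418), which did not pass with values raised to 4 (-0.47; limma adjusted p = 0.108).

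On the mitochondrial stress list, 2 of 6 tested genes entered the test through their high-exposure arrays alone. These were the small heat shock protein gene AT5G51440, at least 749-fold higher at high exposure than in clean air, and AT2G32020, at least 56.7-fold higher. The other 4 all rose, where 22.8% of all probe sets did, with a median difference of 6.28, against -0.10 over all probe sets. AT2G41730 rose by 8.97 and AT2G21640 by 7.47. At low exposure 1 of these 4 rose (AT2G41730, 1.37; limma adjusted p = 0.0104) and 1 fell, where 11.8% of all probe sets rose and 11.4% fell. No gene of a list of 20 ABC transporters had a named probe set of its own, and these were not analysed here.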

How the data were processed

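The deposited values are log2 levels that the authors made with GCRMA (per the submitters' processing notes). Its version and options, and the genome build, are not given in the sources here. That they are log2 was inferred from their range. Genes were named from the platform annotation: of 22810 probe sets, 13513 had 1 gene, 503 several and 8794 none, and 13436 matched a RefSeq TAIR10.1 locus, used for names and gene order only. The 64 control probe sets were left out of the tests.

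One limma model (limma 3.58.1 in R 4.3.3, trend = TRUE) was fitted to all 12 arrays, with Benjamini-Hochberg adjustment over 13874 probe sets. It was checked on simulated data. Array number limits precision. The members, lists and tests were chosen with earlier results of these data known. Named family genes are up to 6 rises and 6 falls at high exposure against clean air and up to 4 in the other contrasts. Plants numbered alike were not paired: residual correlations of the 18 same-numbered pairs ran from -0.328 to 0.326, with 8 over 0.1. Alternatives were other filters, floors, normalizations, weights, controls and leaving out each array.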

Additional observations from a re-analysis of the deposited data

How the results depend on the processing

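The number of other MATE genes called was stable at high exposure against clean air (12; 10 to 14 leaving out 1 array, 11 to 15 under other settings) and against low exposure (12; 9 to 15 and 10 to 15). At low exposure against clean air it was 5, but 8 with array weights, 3 in the fit of 6 arrays and 2 to 6 leaving out 1 array: 3 without clean air replicate 2 or 3, and 2 without low replicate 1. In clean air against outside plants it was 1, but 0 without the filter, 0 with scaling to 7 spike-in sets, 0 in the fit of 6 arrays, 2 with array weights, 2 with the replicate block and 0 to 1 leaving out 1 array (0 without any outside replicate, clean air replicate 1 or 2, or low replicate 1 or 2). The replicate block gave 12 family calls at high and 7 at low exposure against clean air. AT2G04070 did not pass with it either (adjusted p = 0.615 at low exposure, 0.593 in clean air against outside).

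The difference of AT2G04050 against clean air, 7.81, was 5.93 with values raised to 4, as it was against low exposure, and 7.64 with scaling to 14 spike-in sets. That of AT2G04070 ran from 5.99 to 6.82, where 5.99 was the difference from outside plants, used as the control in place of clean air. AT2G04070 did not pass in any fit at low exposure (limma adjusted p 0.192 to 0.864), where the 0.192 was also against outside plants. In clean air against outside plants AT2G04070 did not pass in any fit either (limma adjusted p 0.387 to 0.928). AT1G33590 turned to -0.23 against outside plants. Calls over all probe sets at low exposure were 3224, but 1600 without clean air replicate 3, 1678 without clean air replicate 2, 4845 with array weights, 2084 with scaling to 7 spike-in sets and 4919 against outside plants. In clean air against outside they were 422, and 65 to 528 leaving out 1 array (65 without clean air replicate 2, 88 without clean air replicate 1), 186 without the filter, 103 in the fit of 6 arrays, 1188 with array weights, and 844 or 266 with scaling to 14 or 7 spike-in sets.

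Scaling to spike-in controls was run first with 7 control probe sets and then with all 14, after the first result was seen. With 7, the median of all probe sets between high exposure and clean air was -0.19, the family count 11, and AT5G65380 did not pass against low exposure (adjusted p = 0.0568). With 14 they were -0.27 and 12, and it passed. The causes of these changes were not tested. Levels below 4 carry no order, which limits AT2G04050 in 3 of the 4 groups.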

Other observations

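A pair of MATE genes differed widely between plants of some groups. DTX50 (AT5G52050), known in Arabidopsis as an exporter of abscisic acid, had levels of 6.25, 7.71 and 6.87 outside the chamber, 2.11, 2.26 and 7.96 in clean air, 2.11, 2.20 and 4.50 at low exposure, and 3.43, 6.41 and 6.70 at high exposure. Its groups overlapped at high exposure against clean air, and replicate 3 held the highest value in clean air and at both doses. DTX50 was lower at low exposure than outside (limma adjusted p = 0.0485), in a contrast where 35.5% of all probe sets were called. Against clean air its low-exposure difference did not pass (-1.17; limma adjusted p = 0.588). AT1G61890 had 9.49, 12.40 and 10.29 outside, 8.38, 9.26 and 11.64 in clean air, 7.13, 7.82 and 8.02 at low exposure, and 8.95, 9.76 and 10.10 at high exposure. All 3 low-exposure plants lay below every other plant, and the difference from outside plants was -3.07 (limma adjusted p = 0.0157). The low-exposure difference from clean air did not pass (-2.11; limma adjusted p = 0.0885), nor did high against low exposure (limma adjusted p = 0.0722). Both genes were picked after their values were seen.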
